A study of Homo sapiens with 4 samples.

Results

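The region described here is a cluster of zinc finger genes on the short arm of chromosome 19, in band 19p13.2 about 9 Mb from the start of the chromosome. It was taken as the CpGs that lie from base 9200000 to base 9950000 of chromosome 19 in hg19 (GRCh37), which gave 10179 CpGs of the 27710999 measured on the autosomes and X. The window is 750 kb long and was read in 150 tiles of 5 kb. It overlaps 22 protein-coding genes, of which 20 lie wholly inside. By their sequence 12 of these are C2H2 zinc finger genes (ZNF317, ZNF699, ZNF559, ZNF559-ZNF177, ZNF177, ZNF266, ZNF560, ZNF426, ZNF121, ZNF561, ZNF562 and ZNF846). By their names 7 are olfactory receptor genes (OR1M1, OR7G2, OR7G1, OR7G3, OR7D2, OR7D4 and OR7E24), and 3 are others, among them FBXL12 and UBL5. ZNF559-ZNF177 is annotated as a transcript unit that reads through its neighbours ZNF559 and ZNF177, so its CpGs are largely theirs.

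The method was EM-seq, an enzymatic counterpart of bisulfite sequencing: unprotected cytosines are deaminated and appear as T, and methylated ones remain C. HEK293T cells, a transformed line that derives from human embryonic kidney, were used as wild type (WT) or after deletion of ZNF274 (ZNF274KO), with 2 libraries of each genotype. The knockout was made with CRISPR-Cas9 guides on either side of the gene and single cells were sorted afterwards. The labels do not say whether the 2 knockout libraries come from 1 clone or from separate clones, nor whether the libraries of a group come from separate cultures, so p-values measure only the spread between these libraries, which may be technical. The question put to the window was whether CpG methylation (mCG) in this cluster differs when ZNF274 is missing.

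KRAB zinc finger proteins (KZFPs) bind DNA through arrays of C2H2 fingers and recruit TRIM28 and SETDB1, which deposit the repressive histone mark H3K9me3. ZNF274 is a KZFP that also carries a SCAN domain and is known to bind the finger-coding last exons of other zinc finger genes, which lie in tandem arrays, many of them on chromosome 19. In most human cells the bodies of transcribed genes are highly methylated at CpGs, CpG-rich promoters are unmethylated, and silent gene-poor domains often lose methylation in cultured lines. Olfactory receptors are odour-sensing membrane proteins of olfactory neurons, and their genes are normally silent elsewhere.

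Stretches of 300 bases from the window are printed first, as examples of a sequence that differed and of one that did not. Of 2184 stretches that held at least 10 CpGs and were covered by 60 reads or more in each library, 1171 had every CpG in sequence that occurs once in the genome. Among these the largest positive difference lay in the coding sequence of OR1M1 at chr19:9204418-9204717. It was chosen by its values and is a description, with no test. The other sequence is the 300 bases before the start of ZNF121 at chr19:9695181-9695480, given because levels differed in the gene body that follows it. The sequences are those of GRCh37, 5′ to 3′, the first on the plus strand and the second on the minus strand, as ZNF121 is. Capitals mark each CpG.
Largest positive difference in sequence that occurs once, OR1M1 coding sequence: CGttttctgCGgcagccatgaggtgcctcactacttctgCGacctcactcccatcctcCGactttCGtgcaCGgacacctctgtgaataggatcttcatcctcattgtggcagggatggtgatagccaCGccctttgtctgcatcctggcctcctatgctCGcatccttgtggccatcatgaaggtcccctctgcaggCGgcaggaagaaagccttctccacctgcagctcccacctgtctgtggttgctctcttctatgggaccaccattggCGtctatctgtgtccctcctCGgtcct
Before the ZNF121 start: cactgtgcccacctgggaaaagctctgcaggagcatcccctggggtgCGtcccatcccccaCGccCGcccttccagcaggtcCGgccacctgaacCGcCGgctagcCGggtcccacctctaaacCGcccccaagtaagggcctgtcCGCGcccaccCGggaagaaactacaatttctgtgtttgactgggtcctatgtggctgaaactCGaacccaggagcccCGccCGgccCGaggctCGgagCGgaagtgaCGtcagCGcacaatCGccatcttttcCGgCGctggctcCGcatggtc

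For each library the mCG level of a stretch is its methylated reads in percent of all its reads over CpGs, and a difference between 2 levels is stated in points of that percentage. In the OR1M1 stretch it was 31.1% and 35.8% in WT 1 and WT 2, against 57.7% and 60.8% in ZNF274KO 1 and ZNF274KO 2. Both knockout libraries were thus far above both WT libraries there. The 23 CpGs before the ZNF121 start were unmethylated in nearly every read, with 0% and 0% in WT 1 and WT 2, against 0.80% and 0% in ZNF274KO 1 and ZNF274KO 2. With 0 methylated of 262, 255 and 234 reads, shares of up to 1.15%, 1.18% and 1.28% (3 reads of the total) are allowed by counting error alone.

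Depth overlapped between the groups. The window held 100259 and 82944 reads over CpGs in WT 1 and WT 2, and 95979 and 76993 in ZNF274KO 1 and ZNF274KO 2, a read that spans several CpGs being counted at each, and the median CpG had 7 to 10 reads. A tile had between 154 and 1702 reads in a library. The share of all chromosome 19 reads that fell in the window was 1.12 times as high in ZNF274KO as in WT, while its share of all autosomal reads was 1.004 times as high. As a check of the labels, the 501 CpGs of ZNF274 had 5158 and 4274 reads in the WT libraries, 0 in ZNF274KO 1 and 14 in ZNF274KO 2.

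Over the whole window mCG was higher in both knockout libraries. In WT 1 the level was 53.6% (95% Wilson interval 53.3 to 53.9, counting error only) and in WT 2 it was 53.4% (53.1 to 53.8), against 61.7% in ZNF274KO 1 (61.4 to 62.0) and 57.3% in ZNF274KO 2 (57.0 to 57.7). The means were 53.5% ± 0.0941 and 59.5% ± 3.11 (SD, n = 2), a difference of 6.02 points. The WT libraries were almost equal, and the knockout libraries were well apart, with ZNF274KO 1 the higher. With 2 libraries against 2 the two-sided exact permutation test cannot go below p = 0.3333, the value it gave. The difference was 3.82 points without ZNF274KO 1 and 8.22 points without ZNF274KO 2, and 5.52 points over the 6769 CpGs, 66.5% of the window, in sequence that occurs once. The 75th percentile over CpGs of the mean replicate level was not higher. It was 93.3% in WT and 92.9% in ZNF274KO, a difference of -0.476 points near the top of the scale. It was taken once for each group, so it has no spread between libraries.

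The DNA on either side of the window did not show such a difference. In the 750 kb before it the levels were 54.6% and 53.7% in WT and 55.3% and 53.6% in ZNF274KO, and in the 750 kb after it 68.1% and 66.6% against 68.0% and 66.3%. In both flanks the groups overlapped, with differences of 0.252 and -0.174 points. The genome-wide level also overlapped and differed by -0.541 points, and the rest of chromosome 19 was higher by 2.71 points. Taken within each library, the window minus the flank before it differed between the groups by 5.77 points, the window minus the flank after it by 6.19 points and the window minus the rest of chromosome 19 by 3.31 points, each at the smallest exact permutation p of 0.3333.

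The other 3 KZFP clusters measured, all on chromosome 19, were higher by more in pooled level. The cluster at 12 Mb in the same band was higher by 15.7 points, 19q13.12 by 8.85 points and 19p12 by 32.2 points, with both knockout libraries above both WT libraries in each. Taken within each library, the window minus these clusters differed between the groups by -9.70, -2.83 and -26.2 points (exact permutation p = 0.3333 for each). By the median over 5 kb tiles the order was not the same: 19q13.12 was higher by 4.74 points, less than the 5.72 points of the window, against 16.7 points in the cluster at 12 Mb and 36.8 points in 19p12. The plot of levels by region shows the window beside its flanks and these clusters.

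**Figure D1:**
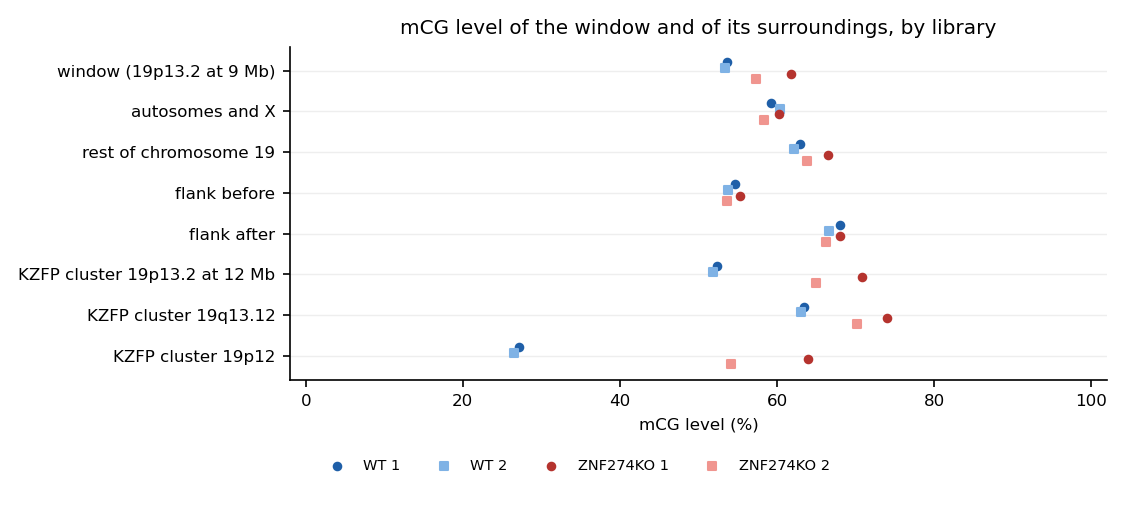
mCG level in percent (x axis) of the window, the autosomes and X, the rest of chromosome 19, the 750 kb flanks and 3 other KZFP clusters, with 1 point for each library and no error bars. The window sits at 53.6% and 53.4% in WT and 61.7% and 57.3% in ZNF274KO, while the points of the groups overlap in both flanks.

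Tiles showed where in the window the levels differed. The quasi-likelihood test of edgeR, fitted on the 563514 tiles of the genome with Benjamini-Hochberg adjustment, called 26 of the 150 tiles, against 0.486% of all tiles. It called 23 of the 150 higher in ZNF274KO at an adjusted p under 0.05, against 0.473% of all, and 3 lower, against 0.0131%. At an unadjusted p under 0.05 there were 81 tiles, against 6.52% of all. Both knockout libraries were above both WT libraries in 89 tiles, against 13.5% of all tiles, and below them in 23, against 22.3%. The higher calls all lay in the first 375 kb: 23 of 75 tiles there and 0 of 75 tiles in the rest. Of the 23 tiles 17 overlapped no protein-coding gene, 5 overlapped an olfactory receptor gene and 1 overlapped a zinc finger gene. Of all 150 tiles 63 overlapped no protein-coding gene, 14 an olfactory receptor gene and 67 a zinc finger gene. The 3 lower tiles lay side by side over ZNF121. In the flanks 2 of 141 tiles before the window and 0 of 150 after it were called higher.

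The calls depended on the library and on the test. ZNF274KO 1 was above ZNF274KO 2 in 23 of the 23 higher tiles and in 127 of all 150. Over the 23 tiles the mean level was 28.6% and 29.4% in WT 1 and WT 2, against 58.3% and 48.1% in ZNF274KO 1 and ZNF274KO 2. Without ZNF274KO 1, 12 tiles were called, all among the 26, against 0.337% of all tiles, and without ZNF274KO 2, 41, against 0.673%. With 1 library left in a group, that library is assumed to vary as those of the other group do. The limma test on log2 ratios called 0 tiles in the window, with 65 at an unadjusted p under 0.05 against 6.12% of all, and called 856 in the genome.

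The largest rise of a tile with at least 30 CpGs was in the gap between ZNF177 and ZNF266. The tile at chr19:9500001-9505000 had 14.9% and 13.5% in WT 1 and WT 2, against 72.4% and 52.4% in ZNF274KO 1 and ZNF274KO 2, a rise of 48.2 points (edgeR, adjusted p = 3.55e-05). The tile just before it rose by 31.2 points (edgeR, adjusted p = 0.000464). Of the other large rises, 2 lay between OR7E24 and ZNF699. The tile at chr19:9375001-9380000 had 11.4% and 11.4% in WT and 56.7% and 42.0% in ZNF274KO (edgeR, adjusted p = 1.01e-05), and the tile at chr19:9385001-9390000 had 26.5% and 26.9% against 61.6% and 52.0% (edgeR, adjusted p = 0.000264). The tile over OR7D4 at chr19:9320001-9325000 had 21.7% and 21.3% against 63.3% and 49.3% (edgeR, adjusted p = 0.000363). In each of these 5 tiles the WT libraries lay close together, and ZNF274KO 1 was above ZNF274KO 2.

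The 5 largest negative differences were those of 3 tiles over ZNF121, which fell by 23.8 points (edgeR, adjusted p = 0.00307), 17.8 points (edgeR, adjusted p = 0.000233) and 12.01 points (edgeR, adjusted p = 0.0174), and of 2 tiles that did not pass the test. Of the latter, the tile next to the one that holds the start of ZNF559, inside the gene, differed by -10.6 points (edgeR, adjusted p = 0.589) and the tile at the start of ZNF317 differed by -9.14 points (edgeR, adjusted p = 0.455). All 5 therefore overlapped zinc finger genes.

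**Figure D2:**
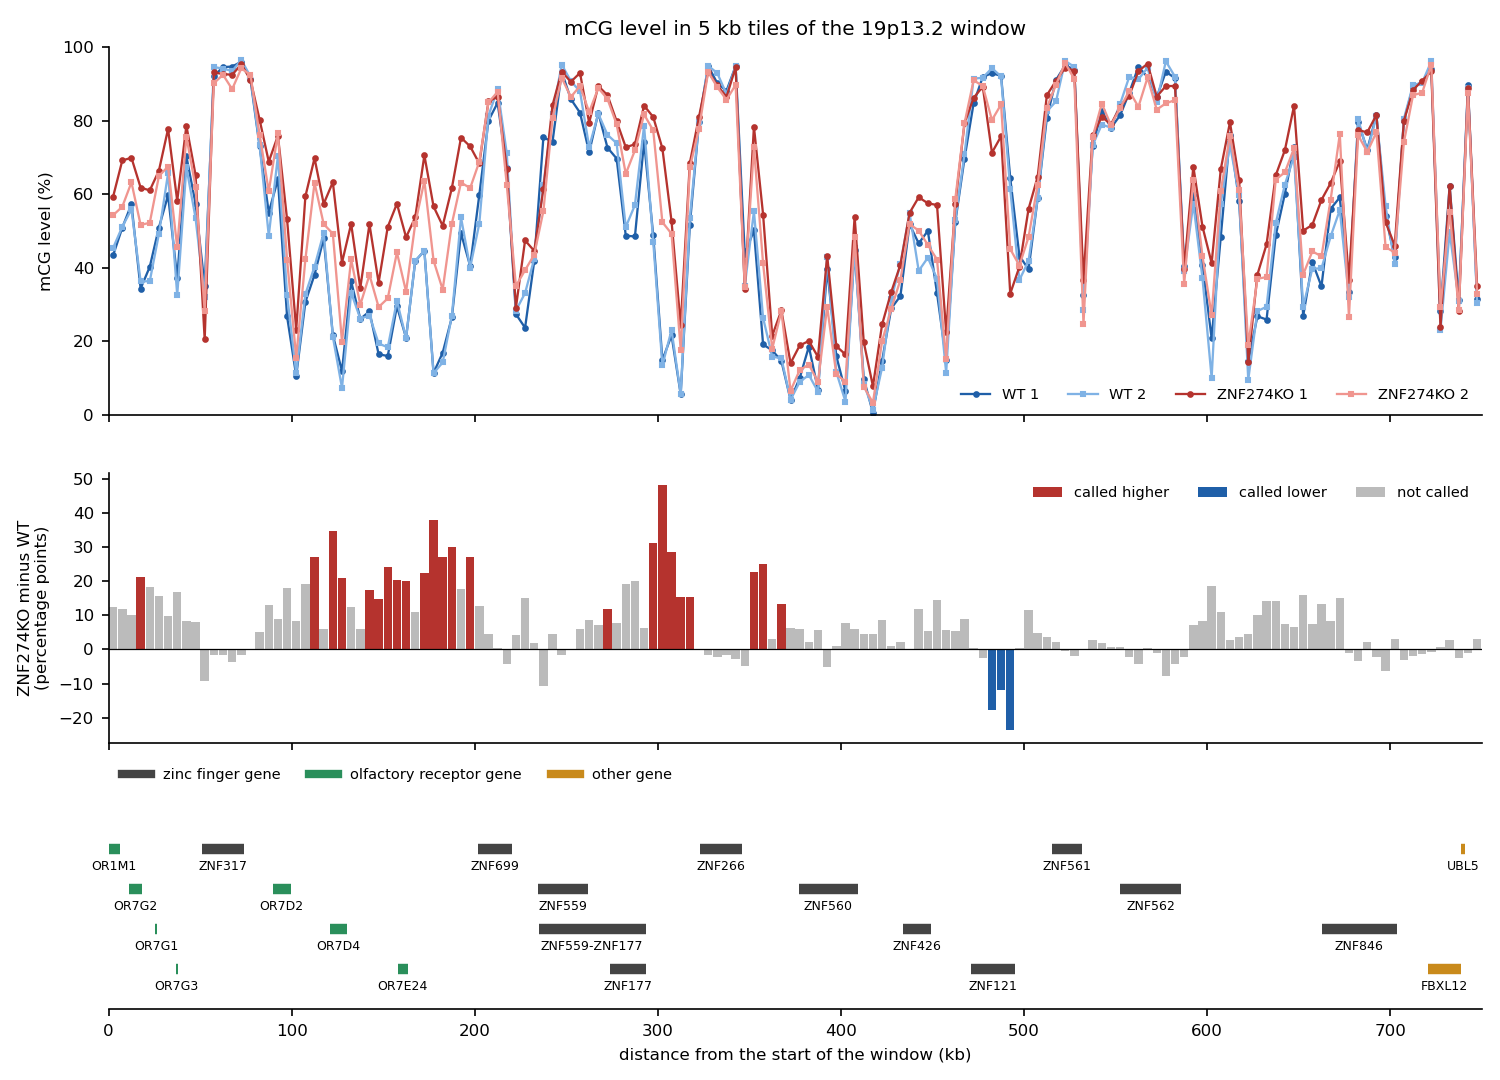
Top, mCG level in percent of each 5 kb tile in each of the 4 libraries against the distance from the start of the window in kb. Middle, the difference of the group means in percentage points, coloured by the edgeR call at an adjusted p under 0.05, and bottom, the protein-coding genes that do not run past its end. The 23 higher tiles lie in the first 375 kb, and the 3 lower tiles lie over ZNF121.

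Tiles that were low in WT were called most often. Of the 36 tiles with a WT mean under 30%, 14 were called higher (38.9%), against 1.38% of all tiles of the genome at that level, and their median difference was 13.8 points. Of the 63 tiles from 30% to 70%, 8 were called higher (12.7%, against 0.348% of all tiles), and of the 51 tiles above, 1 was (1.96%, against 0.0128%). The median difference was 8.48 points in the middle class and -0.566 points in the upper class. Over all tiles of the genome the median was 0.322 points in the low class, -0.00943 in the middle class and -1.31 in the upper class. The WT mean enters both the class and the difference.

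The olfactory receptor genes lie at the start of the window, on both sides of ZNF317, and the DNA around them had higher levels in the knockout. In the 50 kb before ZNF317, a run of 10 neighbouring tiles had both knockout libraries above both WT libraries, against 13.5% of all tiles, with levels of 50.2% and 50.04% in WT and 66.3% and 59.3% in ZNF274KO. Between ZNF317 and ZNF699 the level was 38.2% and 38.8% in WT 1 and WT 2, against 60.4% and 51.2% in ZNF274KO 1 and ZNF274KO 2, a difference of 17.3 points. A run of 26 neighbouring tiles at chr19:9280001-9410000, most of it in this stretch, had both knockout libraries above both WT libraries, and 13 of the 26 were called higher, against 0.473% of all tiles. Both runs were picked because every tile in them has this order, so these counts are a description. Over the 999 CpGs between ZNF317 and ZNF699 in sequence that occurs once the difference was 16.6 points.

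Of the 22 gene bodies of the window 5 were called, against 0.918% of all 19828 gene bodies. Among the 7 olfactory receptor gene bodies, each had both knockout libraries above both WT libraries, against 9.09% of all, and 3 were called higher, against 0.888% of all. OR7D4 (ENSG00000174667.4_12, minus strand, chr19:9320952-9330265), a receptor known for its response to the steroid androstenone, had 14.8% and 11.98% in WT 1 and WT 2, against 50.8% and 32.0% in ZNF274KO 1 and ZNF274KO 2. It rose by 28.0 points (edgeR, adjusted p = 0.00206). OR7E24 (plus strand, chr19:9358020-9363301) had 15.3% and 12.4% in WT and 38.9% and 25.5% in ZNF274KO, a rise of 18.3 points (edgeR, adjusted p = 0.0277). OR7G2 (minus strand, chr19:9211083-9218151) had 48.9% and 47.1% against 67.3% and 61.6%, a rise of 16.4 points (edgeR, adjusted p = 0.044). These 3 genes differ in where they started: the first 2 were below 16% in WT and OR7G2 was near 50%.

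The other 4 olfactory receptor genes did not pass the test. OR1M1 had 39.0% and 41.8% against 55.7% and 49.1% (edgeR, adjusted p = 0.189), and OR7D2 had 49.0% and 54.7% against 66.8% and 61.3% (edgeR, adjusted p = 0.189). OR7G1 and OR7G3 hold only 7 and 12 CpGs. Their differences were 21.8 points (edgeR, adjusted p = 0.33) and 7.41 points (edgeR, adjusted p = 0.727). The 7 bodies had a median difference of 16.4 points from a median WT level of 40.4%. The 383 olfactory receptor bodies tested elsewhere in the genome had a median difference of 0 points, with quartiles of -1.64 and 2.09 points. Their median WT level was lower, at 15.6%, so the sets were not matched for it.

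The last exon of an olfactory receptor gene usually holds its whole coding sequence, and 2 of 7 were called higher, against 0.770% of all 16880 last exons. No other last exon of the window was called in either direction, against 0.835% of all in either and 0.0652% lower. That of OR7D4 had 20.6% and 16.7% in WT and 56.4% and 42.4% in ZNF274KO (edgeR, adjusted p = 0.000169), and that of OR7E24 had 26.4% and 16.4% against 51.0% and 38.1% (edgeR, adjusted p = 0.0423). That of OR7D2, with 24.3% and 32.5% against 48.8% and 40.9%, missed the threshold (edgeR, adjusted p = 0.0836). The promoters, taken as 1 kb either side of the start, had both knockout libraries above both WT libraries in 6 of the 7 genes, against 14.2% of all promoters, OR7E24 being the exception, with differences of 11.2 to 28.5 points over the 7, and none was called. The largest was again OR7D4, with 11.5% and 9.40% against 52.9% and 25.0% (edgeR, adjusted p = 0.134). Its knockout libraries were further apart than in any other promoter of the window. The exception of OR7E24 depends on the start used. At the start of the transcript marked canonical in the annotation it had 13.6% and 13.4% in WT. There it had 34.3% and 21.8% in ZNF274KO, so both knockout libraries were above both WT libraries.

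Between ZNF177 and ZNF266 mCG was higher over a gap of 29.8 kb with no protein-coding gene. The level was 40.4% and 44.6% in WT 1 and WT 2, against 66.1% and 60.5% in ZNF274KO 1 and ZNF274KO 2, a difference of 20.8 points, and 21.1 points over its 224 CpGs in sequence that occurs once. Of all gaps between genes in the window only that between OR7E24 and ZNF699 differed by more, at 24.2 points. Both knockout libraries were above both WT libraries in 15 of the 18 gaps, against 10.9% of the 14128 gaps of the genome that hold at least 20 CpGs. Over all CpGs between genes and outside promoters the level was 48.7% and 49.0% in WT and 62.8% and 56.8% in ZNF274KO. This was higher by 10.9 points, whereas over zinc finger gene bodies, also outside promoters, the level was 74.4% and 75.2% against 75.1% and 73.4%.

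ZNF177 was the only zinc finger gene whose body was called higher. Its body (ENSG00000188629.14_11, plus strand, chr19:9473689-9493293) had 62.2% and 66.5% in WT 1 and WT 2, against 77.9% and 75.9% in ZNF274KO 1 and ZNF274KO 2, a rise of 12.6 points (edgeR, adjusted p = 0.0368). It was also the zinc finger gene with the most methylated promoter in every library, at 75.5% and 80.1% in WT and 87.7% and 87.2% in ZNF274KO, which did not pass the test (edgeR, adjusted p = 0.428). Its last exon held only 8 CpGs and was higher by 13.7 points (edgeR, adjusted p = 0.674). The readthrough unit ZNF559-ZNF177, which contains it, had 73.1% and 74.7% against 79.7% and 77.3% (edgeR, adjusted p = 0.468), and ZNF559 itself 72.1% and 72.6% against 73.7% and 68.7% (edgeR, adjusted p = 0.929).

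ZNF560 lies in the least methylated of 7 stretches of the window taken by gene order. From 1 kb before the start of ZNF266 to the end of the gap that follows ZNF560 towards ZNF426, the level was 25.3% and 24.9% in WT 1 and WT 2, against 35.5% and 28.4% in ZNF274KO 1 and ZNF274KO 2, higher by 6.87 points. The 3 called tiles of this stretch lay between ZNF266 and ZNF560 and rose by 22.7 points (edgeR, adjusted p = 0.0042), 25.1 points (edgeR, adjusted p = 0.00779) and 13.3 points (edgeR, adjusted p = 0.0101). The body of ZNF560 itself overlapped between groups, with 25.8% and 23.5% in WT and 32.6% and 23.1% in ZNF274KO (edgeR, adjusted p = 0.79). The gap of 76.9 kb between ZNF562 and ZNF846 was the longest in the window, at 51.6% and 51.0% against 62.5% and 56.4%, and held no called tile.

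ZNF121 went the other way. Its body (ENSG00000197961.12_8, minus strand, chr19:9671005-9695180) had 79.3% and 76.9% in WT 1 and WT 2, against 59.6% and 67.9% in ZNF274KO 1 and ZNF274KO 2 and fell by 14.3 points (edgeR, adjusted p = 0.01). It was the only gene body of the window called lower, against 0.0303% of all gene bodies, or 6 of 19828. Both knockout libraries were below both WT libraries, against 30.6% of all gene bodies, and the fall was largest in ZNF274KO 1, the library with the higher levels in the tiles that rose. Without ZNF274KO 1 the difference was -10.2 points and was not called (edgeR, adjusted p = 0.315). After centring each library on its genome-wide level the difference was -13.8 points and was not called (edgeR, adjusted p = 0.0629). Over the 218 of its 314 CpGs in sequence that occurs once it was lower by 13.3 points. Its share of chromosome 19 reads beyond 1 kb of the start was 1.18 times as high in ZNF274KO as in WT, and those of the other 6 stretches of the window were 1.104 to 1.18 times as high. For the whole window the share of chromosome 19 reads was 1.12 times as high, but the share of autosomal reads was 1.004 times. The part of read depth in these differences was not tested.

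The fall lay in the gene body next to the start and not at the start itself. In the first kb after the start the level was 0.781% and 0.455% in WT 1 and WT 2, against 0.219% and 4.23% in ZNF274KO 1 and ZNF274KO 2. In the next kb, with 24 CpGs and at least 140 reads in a library, it was 71.4% and 75% in WT but 10.3% and 46.4% in ZNF274KO, and from 2 to 3 kb 90.7% and 90.8% against 39.0% and 62.5%. The WT libraries thus reached their plateau within 3 kb of the start. ZNF274KO 1 first passed 50% at 3 kb and ZNF274KO 2 at 2 kb, against 1 kb in both WT libraries. Both knockout libraries were below both WT libraries in 15 of the 15 bins of 1 kb from 1 to 16 kb, against 22.0% of such bins over all protein-coding genes. This range ends where the run of lower bins ends, so the count is a description. The groups overlapped from 16 to 17 kb, at -0.306 points. Beyond that, bins went either way, with -7.92 points from 17 to 18 kb and 6.10 points from 21 to 22 kb. Neighbouring bins of 1 gene are not independent. From 1 to 16 kb the median difference was -15.9 points, and a second dip of -32.6 points lay at 12 to 13 kb. The last exon, which carries the fingers, had 93.9% and 94.1% in WT and 92.4% and 92.0% in ZNF274KO (edgeR, adjusted p = 0.846). The promoter had 9.15% and 5.71% against 5.99% and 8.87% (edgeR, adjusted p = 1).

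The same profile was drawn for the other 11 zinc finger genes, as a description with no test. Of the bins from 1 to 16 kb, the number with both knockout libraries below both WT libraries ran from 0 of 15 in ZNF560 to 8 of 15 in ZNF562, on both sides of the 22.0% of all genes' bins. ZNF317 had the next largest dip, from 84.3% and 95.1% in WT to 50% and 68.6% in ZNF274KO at 1 to 2 kb, where 13 CpGs lie, and ZNF266 had one of -15.2 points at the same distance. Their medians over these bins, -2.72 and -2.34 points, were near 0, and that of ZNF121 was -15.9 points. ZNF177 was the opposite case, with a median of 12.8 points and 10 of 12 bins higher in both knockout libraries, against 14.0% of all genes' bins.

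**Figure D3:**
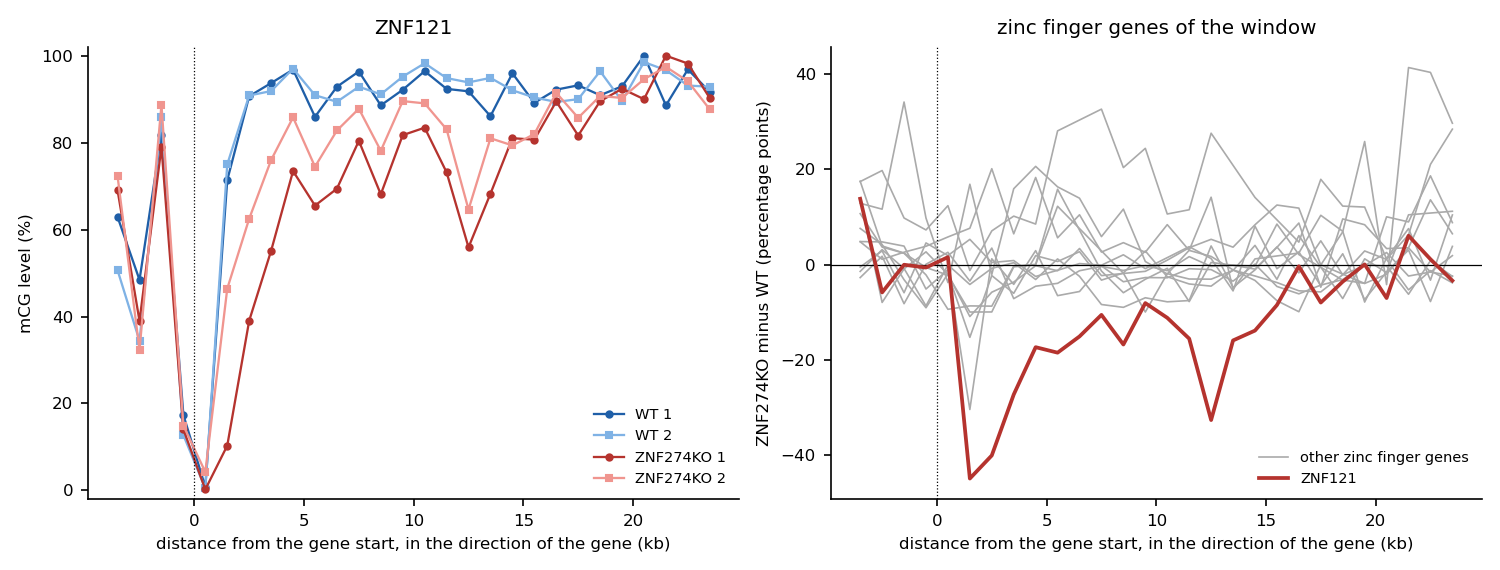
Left, mCG level in percent in bins of 1 kb around the start of ZNF121 in each of the 4 libraries, and right, the difference of the group means in percentage points for ZNF121 and the other 11 zinc finger genes, against the distance from the gene start in kb. ZNF121 is lower in 15 of the 15 bins from 1 to 16 kb, by up to 44.8 points, a range that ends where this run ends.

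The other zinc finger genes showed no change that passed the test in body, promoter or last exon. ZNF317, ZNF266, ZNF561 and ZNF562 had WT levels of 74.3% to 85.5% and differed by -2.92, -2.58, 1.34 and -3.52 points. ZNF699 had 65.8% and 66.4% in WT against 66.1% and 66.8%. ZNF426 had 49.7% and 47.0% against 57.3% and 48.1%, and ZNF846 had 52.1% and 51.1% against 53.4% and 49.0%. Their adjusted p-values in edgeR ran from 0.686 to 0.979. Over the 12 zinc finger bodies the median difference was -0.0215 points, and over the 647 tested elsewhere -0.137 points, of which 108 were called higher and 0 lower.

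ZNF274 is known to bind the last exons of zinc finger genes, and its binding in this window was not examined here. Of the 12 last exons of zinc finger genes, 0 were called (edgeR), and their median difference was -0.182 points from a median WT level of 77.6%. At an unadjusted p under 0.05 there were 2 of the 12, against 7.17% of all last exons and 179 of the 636 zinc finger last exons elsewhere. The limma test called 0 of all 21 last exons of the window, with 7 at an unadjusted p under 0.05 against 7.06% of all. Elsewhere 106 of the 636 zinc finger last exons were called higher by edgeR. The largest differences among the 12 were in ZNF177 and the readthrough unit, 13.7 and 10.5 points over 8 and 6 CpGs, and in ZNF699, with 70.99% and 68.7% in WT and 76.6% and 77.2% in ZNF274KO (edgeR, adjusted p = 0.684). Pooled, the last exons had 80.6% and 80.01% against 81.9% and 80.1%, and the groups overlapped.

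Zinc finger promoters ranged from unmethylated to largely methylated and 0 of the 22 promoters of the window were called by edgeR or by limma, with 8 and 7 at an unadjusted p under 0.05, against 6.05% and 5.51% of all 19746 promoters. At the adjusted threshold edgeR called 0.248% of all promoters, 0.187% higher and 0.0608% lower. ZNF317, ZNF121 and ZNF561 were below 10% in every library, ZNF699, ZNF559, ZNF266 and ZNF562 between 7.55% and 24.0%, and ZNF426, ZNF560, ZNF846 and ZNF177 between 34.8% and 87.7%. The place of ZNF846 depends on the start used. At the start of its canonical transcript, with 96 CpGs, it had 6.60% and 9.11% in WT and 6.45% and 6.41% in ZNF274KO. The largest negative differences among zinc finger promoters, none past the test, were -6.41 points in the readthrough unit (edgeR, adjusted p = 0.798), -5.45 points in ZNF266 (edgeR, adjusted p = 0.887) and -4.65 points in ZNF559 (edgeR, adjusted p = 0.887). Levels were also pooled over the genes, with 1 kb either side of the canonical start added. Zinc finger promoters then had 26.2% and 23.4% in WT and 26.6% and 22.7% in ZNF274KO, a difference of -0.179 points. Olfactory receptor promoters had 28.8% and 24.9% against 48.8% and 40.1%, a difference of 17.6 points. The pooled WT levels were near each other, but single promoters at the annotated start spread widely in WT. They ran from 3.07% to 80.1% in zinc finger genes and from 9.40% to 58.3% in olfactory receptor genes.

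**Figure D4:**
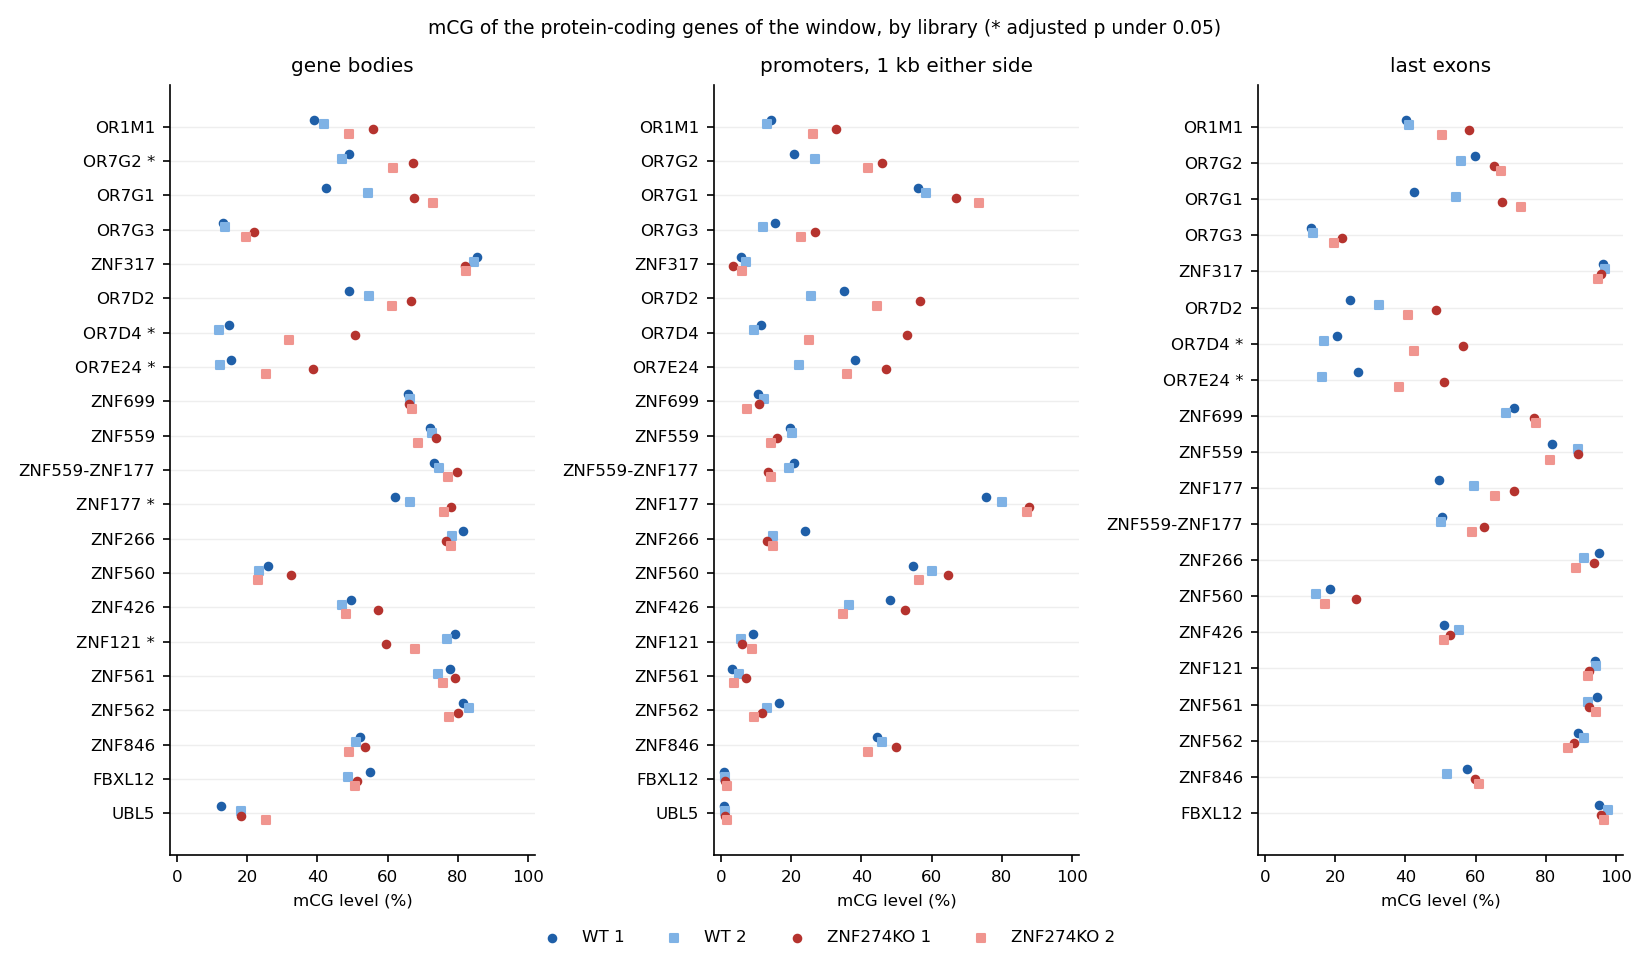
mCG level in percent (x axis) of the body, the promoter (1 kb either side of the start) and the last exon of protein-coding genes of the window, leaving out any that runs past its end, with 1 point for each library and genes in order along the chromosome. An asterisk marks an edgeR adjusted p under 0.05, which 5 bodies, 0 promoters and 2 last exons reached.

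FBXL12 and UBL5 lie at the end of the window and have housekeeping roles, FBXL12 as an F-box protein of a ubiquitin ligase and UBL5 as a ubiquitin-like protein of splicing. Their promoters, which overlap, were unmethylated in all 4 libraries, from 0.802% to 1.75%. The body of FBXL12 differed by -0.719 points (edgeR, adjusted p = 0.956) and that of UBL5 by 6.44 points (edgeR, adjusted p = 0.692). Methylation of the genes of silencing factors was tested for a list of 16 genes of the KRAB, H3K9me3 and DNA methylation pathways elsewhere in the genome. Of 16 bodies, 16 promoters and 15 last exons, edgeR called 0, against 0.918%, 0.248% and 0.835% of all. At an unadjusted p under 0.05 there were 2, 1 and 0 by edgeR, against 7.21%, 6.05% and 7.17% of all. The limma test called 0, with 0, 1 and 0 at an unadjusted p under 0.05, against 6.72%, 5.51% and 7.06% of all. So few genes cannot be told apart from these shares. The differences ran from -5.52 to 3.42 points.

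Calls on gene bodies changed with the libraries left out. The share of all bodies or last exons called at the adjusted threshold without a library is not given. These calls are therefore not set against the genome. Without ZNF274KO 1, where the WT pair alone gives the spread, 0 of the 22 bodies were called by edgeR, with 10 at an unadjusted p under 0.05 against 10.1% of all gene bodies. Apart from ZNF121, given above, the differences without it were 18.6 points in OR7D4, 11.6 points in OR7E24, 13.5 points in OR7G2 and 11.6 points in ZNF177. Without ZNF274KO 2, OR7D4, OR7E24 and ZNF121 were called, and OR7G2 and ZNF177 were not, at 19.3 and 13.6 points. OR7G2 also lost its call without WT 2, where OR7D2 gained one, and ZNF177 lost its call without WT 1. The limma test called 0 bodies, with 11 at an unadjusted p under 0.05 against 6.72% of all, where edgeR had 9 with all libraries against 7.21%. The last exon of OR7D4 was called whichever library was left out, and that of OR7E24 lost its call without WT 2 or without ZNF274KO 1.

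Counted CpG by CpG, the share with a level under 20% differed by more than the share over 80% in 5 of the 7 stretches, the ZNF121 body and the stretch between ZNF561 and ZNF562 being the exceptions. In the stretch from ZNF317 to ZNF699, of 1166 CpGs that each library covered with 5 reads or more, the share with a level under 20% was 47.1% and 46.4% in WT 1 and WT 2, against 16.6% and 27.0% in ZNF274KO 1 and ZNF274KO 2, while the share over 80% was 21.4% and 21.4% against 37.1% and 28.5%. Intermediate CpGs, from 20% to 80%, went from 31.5% and 32.2% to 46.3% and 44.5%. In the gap between ZNF177 and ZNF266, with 215 such CpGs, the share under 20% went from 40.0% and 39.5% to 13.5% and 20.5% and the share over 80% from 27.0% and 22.8% to 43.7% and 40.9%. The groups did not overlap in any of these shares. How often that holds over the genome was not counted, so it is a description of stretches chosen with earlier results known. In the ZNF121 body beyond 1 kb of its start, with 186 such CpGs, the share over 80% went from 83.9% and 86.6% to 51.1% and 62.9%, while the share under 20% went from 0.538% and 0.538% to 9.68% and 2.69%. The share of intermediate CpGs there went from 15.6% and 12.9% to 39.2% and 34.4%. Between ZNF561 and ZNF562 the shares over 80% overlapped, at 70.3% and 67.4% against 69.5% and 64.04%, and those under 20% were 17.0% and 16.9% against 16.2% and 16.2%.

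**Figure D5:**
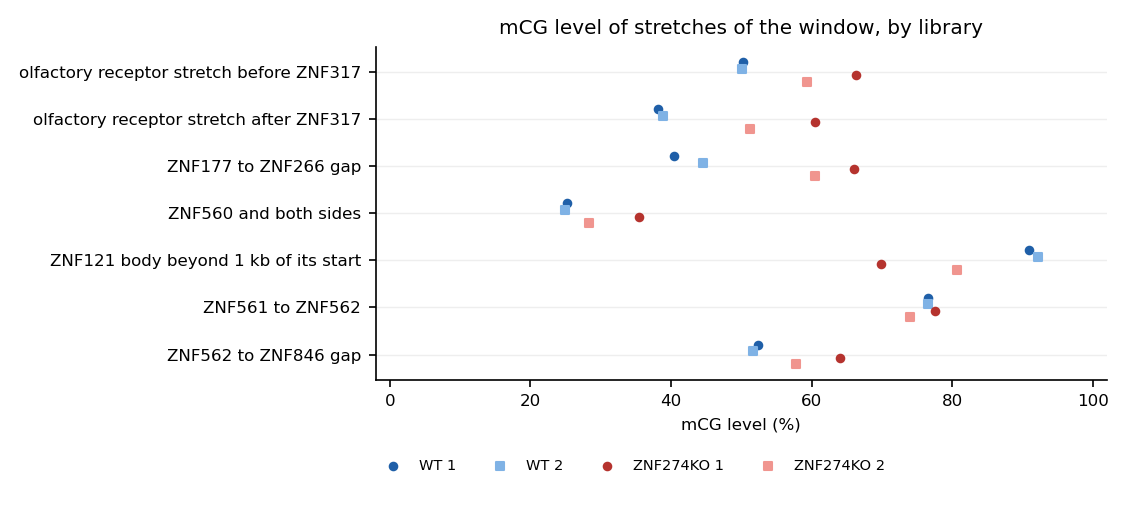
mCG level in percent (x axis) of 7 stretches of the window, with 1 point for each library. Both knockout points lie above both WT points in 5 stretches, below them in the ZNF121 body beyond 1 kb of its start, and on both sides of them between ZNF561 and ZNF562. The stretches were chosen with earlier results of these data known. No share over comparable stretches of the genome is given, so these counts are a description.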

How the data were processed

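EM-seq libraries of HEK293T cells, 2 WT and 2 ZNF274KO, were sequenced by the authors with paired ends and aligned to hg19 with HISAT2 within Msuite2. The deposited files hold, per the labels and the file columns, counts of reads with C and with T at each CpG on each strand. How duplicates and poorly mapped reads were treated is not given in the sources used here, and reads without molecular identifiers are not independent molecules, so intervals cover counting error only.

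Counts of both strands were added. Tiles of 5 kb, gene bodies, promoters (1000 bases either side of the start) and last exons of GENCODE genes on GRCh37 with at least 20 reads and 5 CpGs in every library were tested in edgeR 4.0.16 (R 4.3.3) by the quasi-likelihood test, with a coefficient for each library and the methylation log-odds by group, without a replicate block, and Benjamini-Hochberg adjustment over all features of the genome. A zinc finger gene had at least 3 C2H2 matches in its longest reading frame. limma 3.58.1 (pseudocount 1) was an alternative. Levels of whole regions were compared by two-sided exact permutation (scipy 1.17.1). A CpG counted as lying in sequence that occurs once when the 50 bases around it did. The members, gene lists and stretches were chosen with earlier results of these data known. All genes of the window but 1, which is not reported here, are named. The tiles named are the 5 largest positive and negative differences among those with at least 30 CpGs, and others were chosen after their values were seen.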

Additional observations from a re-analysis of the deposited data

How the results depend on the processing

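With limma 0 tiles, 0 gene bodies and 0 last exons of the window were called. The labels do not say whether libraries of the same number share more than that number. Over tiles WT 2 minus WT 1 and ZNF274KO 2 minus ZNF274KO 1 correlated at -0.108, which does not decide it. With the replicate block 41 tiles, 5 bodies, 4 promoters and 4 last exons were called, and the window difference of 6.02 points cannot move, since each block holds 1 library of each group. With crossed numbers, chosen after seeing the data, the block called 48 tiles and 4 promoters. Tiles of 10 kb gave 15 calls of 75, and tiles of 50 kb gave 2 of 15. On the Watson strand alone 1 body and 1 last exon were called, and on the Crick strand alone 2 bodies and 1 last exon. For the block, the other tile sizes and the single strands, the share called over the whole genome is not given. Those counts therefore do not set the window against the genome. The 75th percentile over CpGs differed by -0.476 points, with no value for each library. Leaving out each library in turn gave 12 to 41 tiles, 0 to 5 bodies, 0 to 1 promoters, 1 to 2 last exons and a window difference of 3.82 to 8.22 points. A single strand has fewer reads, and leaving a library out leaves fewer libraries. The cause of these shifts was not tested. Of 1340 values of 93 single genes and tiles, 1241 kept their side of the threshold, 82 lost and 17 gained a call, and 0 called values changed sign, while 53 uncalled ones did; limma, the block and the read minimum cannot move a difference. Low depth, with a median of 7 to 10 reads at a CpG, limits statements on single CpGs, and 2 libraries a group limit every test.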
